A study of Mus musculus with 908 samples.

Results

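Tumour cells of mouse skin squamous cell carcinoma that lacked CD44 at the surface but carried integrin α6, the integrin of the basal epithelial layer, were divided by whether they expressed the proliferation genes Mki67 and Top2a. A cell was called cycling when both transcripts reached 1 TPM (a share of a library's transcripts, normalised for gene length) and non-cycling when both were below 1 TPM. The gate held 96 single-cell libraries, of which 91 had at least 2000 genes at 1 TPM or more. Of these 91, 31 were cycling, 28 were non-cycling and 32 had only 1 of the 2 transcripts and were left out, 15 of them with Mki67 and 17 with Top2a. The whole series held 908 libraries, 696 of them with at least 2000 genes.

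The study sorted skin tumour cells by flow cytometry either before or after an immunotherapy by adoptive transfer of T cells and sequenced single cells by the full-length Smart-seq2 protocol. Both classes came from 1 sort, made before therapy, of mice of mixed sex aged P60 to P90 with the strain name TRE-HrasG12V;SBE-mCherry-PGK-rtTA3: an activated Hras transgene under a tetracycline-responsive element, a SMAD-binding-element mCherry that reports TGF-beta signalling, and the rtTA3 transactivator behind the PGK promoter. The sort took cells without mCherry, CD34 or CD44, and without CD31, CD140a, CD117 and CD45, which mark endothelial, mesenchymal, mast or pigment, and blood cells. For comparison the same split was made in the reporter-positive gate (mCherry+, CD34+, CD44+ and α6+ cells of the same strain, age and time) and in cells of the strain TRE-OVA;TRE-HrasG12V:PGK-rtTA3P2AmCherry, of the same age, sorted on mCherry after the transfer. The labels name no animal, so each gate is 1 sample, the cells are not replicates, and no test or p-value was computed between the classes. SDs are over cells, and intervals of shares are exact 95% binomial intervals that cover counting error only.

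Cells that divide copy their DNA in S phase, with cyclin A and cyclin E partners of the cyclin-dependent kinases, and then pass through G2 into mitosis, driven by Cdk1 with cyclin B. Many G2 and mitosis genes share a promoter layout in which the CHR element and CCAAT boxes bind the DREAM and MuvB complexes and NF-Y, while many S phase genes carry E2F sites. In stratified epithelium, division is a property of the basal layer, and cells that leave it switch on the suprabasal keratins Krt1 and Krt10 and stop dividing. Mki67 encodes Ki-67, which coats mitotic chromosomes, and Top2a encodes topoisomerase IIα, which untangles replicated DNA.

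The classes were chosen by the TPM of Mki67 and Top2a, so the values of these 2 genes are a description only. Mki67 had a lowest value of 1.08, a median of 24.6 and a highest value of 72.6 TPM in cycling cells, against 0, 0 and 0.49 TPM in non-cycling cells. Top2a had 1.65, 38.3 and 139.9 TPM in cycling cells, against 0, 0 and 0.67 TPM in non-cycling cells, of which 18 were listed at 0 for both genes. Among the cells left out, the values next to the threshold were 1.06 and 0.66 TPM for Mki67 and 2.18 and 0.72 TPM for Top2a. The cycling class was 34.1% of the gate (31 of 91, 24.5 to 44.7). It was 17.1% of the reporter-positive cells (18 cycling, 67 non-cycling and 20 with 1 marker, 10.5 to 25.7) and 16.9% of the cells after transfer (30, 93 and 54 cells, 11.7 to 23.3). The gates differ in their sort markers, and the cells after transfer also in strain and treatment. Differences in this share between the gates were not tested.

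Every one of the 91 cells had its highest mean marker level, among 7 cell types, for keratinocyte markers. The 8 keratinocyte markers summed to a median of 10009 TPM in cycling cells (4397 to 17182) and 11580 TPM in non-cycling cells (5111 to 17442). Fibroblast markers summed to medians of 39.2 TPM in cycling cells and 24.04 TPM in non-cycling cells (11.04 to 189.1 and 0 to 91.1). Of these 8 markers 5 were detected in some cell of the gate. Dcn and Dpt were listed at 0 in both classes, and Col1a2, Pdgfra and Lum in cycling cells only. Immune markers summed to a median of 0 TPM in both classes, with highest sums of 5.58 TPM in cycling cells and 25.4 TPM in non-cycling cells. Of those 8, 3 were detected in the gate, and Ptprc, Cd3e, Cd3g and Nkg7 were listed at 0 in both classes. The cells came from at least 2 mice: 42 cells, all in plate rows A to D, had Xist, which is made from an inactive X chromosome, and 44, all in rows E to H, had transcripts of Y-linked genes. A further 4 cells had neither mark and 1 had both. Cycling cells were 28.6% of the cells with Xist (12 of 42, 15.7 to 44.6) and 38.6% of those with Y-linked transcripts (17 of 44, 24.4 to 54.5), and differences are given within each set where they bear on a result. No library of the gate matched another library of the series as a repeat of the same cell, the highest correlation of log2(TPM + 1) being 0.86.

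Other measures moved with the split. Cycling cells had a median of 7347 genes at 1 TPM or more (4993 to 8297), and non-cycling cells had 6524 (2903 to 8021). Spike-in RNA took a median of 0.367% of TPM in cycling cells and 0.490% in non-cycling cells. It was lower in cycling cells within both sets, at 0.270% against 0.391% among cells with Xist and 0.415% against 0.543% among cells with Y-linked transcripts. The part of the number of genes and of spike-in share in the differences below was not tested. A comparison of 11 cycling with 11 non-cycling cells, paired within each set so that their number of genes differed by at most 200 (medians of 6970 and 6985), is given beside results below, and it moved some of them over the thresholds used here in either direction.

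**Figure D1:**
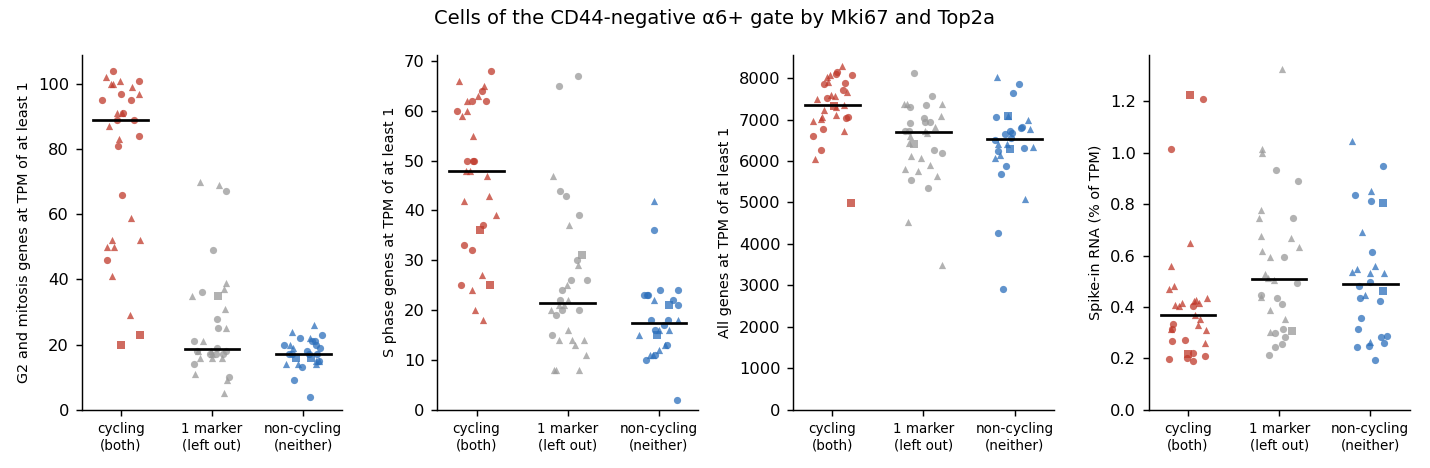
Each point is 1 cell of the CD44-negative α6+ gate (circles, cells with Xist; triangles, cells with Y-linked transcripts; squares, both or neither), grouped as cycling, with 1 of the 2 markers, and non-cycling; the vertical axes give the number of G2 and mitosis genes, S phase genes and all genes at 1 TPM or more and the spike-in share in percent, and bars are medians. Cycling cells have a median of 89 G2 and mitosis genes and non-cycling cells 17, with 2 cycling cells inside the range of the non-cycling ones.

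The labels of the classes were checked with cell cycle genes that had no part in choosing the cells. Of the other G2 and mitosis genes, a cycling cell had at least 20 and at most all but 1 at 1 TPM or more, with a median of 89, and a non-cycling cell between 4 and 26, with a median of 17. Only 2 cycling cells, with 20 and 23 of these genes, did not exceed the highest non-cycling cell. The cell with 20 was the one with Mki67 at 1.08 TPM, and 21 of the 31 cycling cells had over 60 of the genes. S phase genes separated the classes less. Of 70, cycling cells had a median of 48 (18 to 68) and non-cycling cells had 17.5 (2 to 42), and 14 of the 28 non-cycling cells had at least as many as the lowest cycling cell. Cells with 1 marker lay mostly with the non-cycling cells, with a median of 18.5 G2 and mitosis genes (5 to 70), although 11 of the 32 exceeded every non-cycling cell.

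Of all lists, that of G2 and mitosis genes had the largest median difference between the 2 classes. The cells were split on Mki67 and Top2a, which are cell cycle genes themselves and were left out of that median. The ranking of the cell cycle lists is therefore a description only. A gene was counted when at least 10% of the 59 cells had it at 1 TPM or more, and was called higher or lower when its mean log2(TPM + 1) in cycling cells minus that in non-cycling cells was at least 1 in size. By this rule 929 of 11838 genes (7.85%) were higher in cycling cells and 77 (0.650%) were lower. Cell cycle genes, which are the genes of 3 lists together with all histone genes and include Mki67 and Top2a, were higher in 82.8% of cases and lower in 1 case (0.313%). Of the G2 and mitosis genes, 98 were higher by at least 1 and 7 were not, with a median difference of 2.29 (2.73 among cells with Xist, 2.10 among cells with Y-linked transcripts). Of 69 S phase genes counted, 55 were higher and all 69 were above 0, with a median difference of 1.70. The median difference of all genes counted was 0.18. The lean towards higher calls was not kept in the pairs matched on the number of genes, where 812 genes were higher and 745 lower (52.2% of calls higher, against 92.3%) and the median of all genes was -0.04. The lean was kept among the 24 cycling and 22 non-cycling cells with 6000 to 8000 genes, at 83.1% of calls higher. Their median of all genes was 0.09. With a minimum of 6000 genes per cell, 87.6% of calls were higher, and among cells with Y-linked transcripts alone 80.5%. The matched pairs held only 11 cells of each class, and the part of cell number in their calls was not tested.

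Cdk1, the kinase that starts mitosis, had a lowest value of 0, a median of 75.5 and a highest value of 242.6 TPM in cycling cells, against 0, 0 and 2.93 TPM in non-cycling cells. It was at 1 TPM or more in 25 of 31 cycling cells (80.6%, 62.5 to 92.5) and in 1 of 28 non-cycling cells (3.57%, 0.0904 to 18.3), and 24 cycling cells exceeded every non-cycling one. Ccnb1, the cyclin B1 that activates it, had 0, 45.2 and 202.2 TPM in cycling cells and was listed at 0 in all 28 non-cycling cells. Racgap1, which with its kinesin partner builds the central spindle for cytokinesis, had 0, 62.7 and 261.3 TPM in cycling cells, against 0, 0 and 27.9 TPM in non-cycling cells. The differences in mean log2(TPM + 1) were 5.08 for Cdk1 (SD 2.87 in cycling and 0.37 in non-cycling cells), 5.05 for Ccnb1 and 4.77 for Racgap1. The low ends overlapped in every case, since cycling cells without the transcript exist, 6 of 31 for Cdk1 and 3 of 31 for Ccnb1. Ube2c, the ubiquitin-conjugating enzyme of the anaphase-promoting complex, Cenpa, the centromeric histone, Birc5, or survivin, and Ccna2, cyclin A2, had differences of 4.70, 4.32, 4.16 and 4.14. Among histones, Hist1h2ap had the largest difference of the cell cycle genes, 5.68, with a median of 144.98 TPM in cycling cells and 0 TPM in non-cycling cells. It belongs to a cluster of near-identical copies, among which reads may have been split.

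Among S phase genes, Tk1, the thymidine kinase that salvages deoxythymidine, had a lowest value of 0, a median of 39.8 and a highest of 91.2 TPM in cycling cells, against 0, 0 and 7.12 TPM in non-cycling cells. As many as 28 of 31 cycling cells exceeded every non-cycling one, more than for Cdk1, and its difference was 4.13. Uhrf1, which hands DNA methylation on to the new strand, and 2810417H13Rik, the PCNA-clamp associated factor, had differences of 3.47 and 3.46. Some cell cycle genes were close in the 2 classes when all cells were used. Ccnd1, the cyclin D1 of G1, had medians of 16.8 TPM in cycling and 20.5 TPM in non-cycling cells and a difference of 0.07. Zwint, a kinetochore protein, and Pttg1, securin, both mitotic by role, had differences of -0.13 and -0.32, but -1.89 and -1.54 in the pairs matched on the number of genes. Ccnd2, cyclin D2, was the 1 cell cycle gene called lower, at -1.28. It had a median of 0 and a highest value of 370 TPM in cycling cells, against 4.65 and 506.7 TPM in non-cycling cells, and ranges that overlap almost throughout. In the matched pairs its difference was -1.56, among reporter-positive cells -2.42 and after transfer 0.88, the opposite direction.

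The promoters of 4 genes with large differences are shown, of which 3 hold both the CHR word and a CCAAT box, and those of Tk1, an S phase gene, and Pld3, a gene lower in cycling cells, are given for contrast. Each window runs from 250 bases before to 50 bases after the start in RefSeq's annotation of GRCm38.p6, all 6 genes lying on the minus strand, and is written 5′ to 3′ along the gene. Capitals mark TTTGAA, the core of the CHR, and CCAAT, each searched on both strands, so that the other strand reads TTCAAA and ATTGG. The E2F word GGCGGGAA was searched likewise and no window below holds it. No 2 matches overlap. The windows are Cdk1 at chr10:69352863-69353162, Ccnb1 at chr13:100786437-100786736, Racgap1 at chr15:99651607-99651906, Kifc1 at chr17:33890584-33890883, Tk1 at chr11:117825965-117826264 and Pld3 at chr7:27553169-27553468.
Cdk1: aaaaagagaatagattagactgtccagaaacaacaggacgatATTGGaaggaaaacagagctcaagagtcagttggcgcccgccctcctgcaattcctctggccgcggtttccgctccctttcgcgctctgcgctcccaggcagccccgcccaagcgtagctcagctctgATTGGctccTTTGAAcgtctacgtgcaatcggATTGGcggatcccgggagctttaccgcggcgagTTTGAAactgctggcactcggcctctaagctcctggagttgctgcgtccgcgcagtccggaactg
Ccnb1: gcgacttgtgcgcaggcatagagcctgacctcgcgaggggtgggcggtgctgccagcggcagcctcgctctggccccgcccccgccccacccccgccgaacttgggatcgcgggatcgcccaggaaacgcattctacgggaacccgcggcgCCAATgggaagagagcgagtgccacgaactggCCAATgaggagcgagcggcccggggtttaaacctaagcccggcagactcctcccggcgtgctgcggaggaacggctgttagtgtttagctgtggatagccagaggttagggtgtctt
Racgap1: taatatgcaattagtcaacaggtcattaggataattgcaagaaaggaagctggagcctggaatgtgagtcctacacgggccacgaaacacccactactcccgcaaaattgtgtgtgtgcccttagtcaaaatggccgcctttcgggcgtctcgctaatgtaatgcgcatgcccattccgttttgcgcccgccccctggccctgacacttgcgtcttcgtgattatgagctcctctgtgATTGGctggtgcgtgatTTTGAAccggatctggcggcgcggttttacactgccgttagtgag
Kifc1: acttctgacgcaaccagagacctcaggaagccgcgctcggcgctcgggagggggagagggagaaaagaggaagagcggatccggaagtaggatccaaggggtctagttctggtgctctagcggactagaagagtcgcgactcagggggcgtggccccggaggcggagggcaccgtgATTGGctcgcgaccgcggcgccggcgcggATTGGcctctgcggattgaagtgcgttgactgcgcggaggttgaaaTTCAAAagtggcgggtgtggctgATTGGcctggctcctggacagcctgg
Tk1: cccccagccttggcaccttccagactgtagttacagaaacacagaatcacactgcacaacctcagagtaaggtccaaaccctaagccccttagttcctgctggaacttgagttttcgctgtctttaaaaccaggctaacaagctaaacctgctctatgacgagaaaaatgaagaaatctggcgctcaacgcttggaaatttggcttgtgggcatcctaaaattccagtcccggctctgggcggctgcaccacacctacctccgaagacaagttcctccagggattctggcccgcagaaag
Pld3: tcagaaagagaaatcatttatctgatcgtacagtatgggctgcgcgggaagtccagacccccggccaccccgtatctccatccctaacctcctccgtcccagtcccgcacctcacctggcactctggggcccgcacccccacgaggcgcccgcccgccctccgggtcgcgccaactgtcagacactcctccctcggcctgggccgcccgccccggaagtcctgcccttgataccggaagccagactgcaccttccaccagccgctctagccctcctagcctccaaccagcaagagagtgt

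The Cdk1 window held 2 CHR words and 3 CCAAT boxes, Racgap1 1 and 1, and Kifc1 1 and 3. That of Ccnb1 held 2 CCAAT boxes and no TTTGAA, and those of Tk1 and Pld3 held none of the 3 words. Of 32851 promoter windows of 27025 genes in the RefSeq table, 17.9% held the CHR word, 37.4% a CCAAT box, 6.95% both and 2.19% the E2F word. For 86 G2 and mitosis genes (81.9%) the table held 93 windows. Of these, 62.4% held the CHR word, 66.7% a CCAAT box, 47.3% both and 1.08% the E2F word. Of 24 windows for 20 of the 22 nucleotide synthesis genes, 4.17% held the CHR word and 12.5% the E2F word. For the S phase, cholesterol and suprabasal lists fewer than 80% of the genes had a window, so no share is given for them. A match to these letters is a description of the sequence and not evidence of binding.

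Among genes outside the cell cycle lists, 665 of 11519 (5.77%) were higher in cycling cells and 76 (0.660%) were lower. These genes made up 71.6% of all genes called higher, but they were 11519 of the 11838 genes counted. Of the genes on the lists, 82.8% were higher. The 12 with the largest positive differences that kept their direction in both sets were Kifc1, Nrm, Knstrn, Ndc1, Pmf1, Fam83d, Ppih, Ppil1, Tmem97, Dnph1, Dnajc9 and Hirip3, with differences of 2.44 to 3.42. Several are mitotic proteins that the lists had left out. Kifc1 is a minus-end kinesin that bundles spindle microtubules, Knstrn and Fam83d bind the spindle, and Pmf1 is a subunit of the Mis12 kinetochore complex. Kifc1 had a lowest value of 0, a median of 22.8 and a highest value of 114.98 TPM in cycling cells, against 0, 0 and 20.3 TPM in non-cycling cells. It was detected in 24 of 31 cycling cells (77.4%, 58.9 to 90.4) and in 3 of 28 non-cycling cells (10.7%, 2.27 to 28.2), and 17 cycling cells exceeded every non-cycling cell. Kifc1 has a near-identical copy in the mouse, Kifc5b, so reads may have been divided between them. Knstrn had 0, 10.4 and 55.2 TPM in cycling cells, against 0, 0 and 31.01 TPM in non-cycling cells, where 2 of 28 had it.

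A second group consists of proteins of the nuclear envelope. Nrm, the inner nuclear membrane protein nurim, had 0, 34.6 and 155.2 TPM (lowest, median, highest) in cycling cells, against 0, 0 and 56.4 TPM in non-cycling cells, with a difference of 3.11 (SD 1.87 and 2.01). Ndc1, the transmembrane nucleoporin that anchors nuclear pores, had 0, 18.6 and 61.2 TPM in cycling cells, against 0, 0 and 29.8 TPM in non-cycling cells, with a difference of 2.81. Both were in at least 28 of 31 cycling cells, and Nrm was also in 12 and Ndc1 in 8 of 28 non-cycling cells. Among reporter-positive cells Nrm and Ndc1 had differences of 2.30 and 2.99, and after transfer 2.61 and 3.07.

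The remaining 6 have other roles. Ppih and Ppil1 are cyclophilins of the spliceosome and had differences of 2.51 each. Ppil1 was in 30 of 31 cycling cells, with a median of 15.9 TPM, and in 12 of 28 non-cycling cells, with a median of 0 TPM. Tmem97, the sigma-2 receptor, had medians of 14.8 TPM in cycling and 0.415 TPM in non-cycling cells and a difference of 2.48. Dnph1, a hydrolase that removes damaged deoxynucleotides, was in 29 of 31 cycling and 6 of 28 non-cycling cells, with a difference of 2.47. Dnajc9, a heat shock and histone co-chaperone, and Hirip3, a histone-binding protein, had differences of 2.47 and 2.44. All 12 stayed at a difference of at least 1 under each of 13 alternatives, between 1.74 and 4.004 in the pairs matched on the number of genes. Not all of these alternatives could have changed the result. Filters on genes leave the difference of a gene as it is, and the Xist and Y-linked sets were used in choosing these genes. All 12 were also above 0 among reporter-positive cells and after transfer, 10 of them by at least 1 in both. The exceptions were Ppih at 0.97 and Dnph1 at 0.93, both among reporter-positive cells.

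The 12 genes with the largest negative differences were detected in part of the cells of both classes. They were Pld3, Ahnak2, Mapre3, Vps39, Trp53inp2, Enthd2, Galt, Mxd4, Il1r2, Serpinb2, Clca3a2 and Tmbim4, with differences of -1.81 to -1.41. Several are known from membrane traffic and its end points. Pld3 is a lysosomal nuclease, Vps39 a subunit of the HOPS complex that fuses late endosomes with lysosomes, Enthd2 an accessory protein of the AP-4 coat, and Trp53inp2 a regulator of autophagy. The list of 20 lysosome and autophagy genes itself had a median difference of -0.17, with 0 genes past 1 in either direction. Pld3 had a lowest value of 0, a median of 3.55 and a highest value of 38.2 TPM in cycling cells, against 0, 19.6 and 132.8 TPM in non-cycling cells. It was in 19 of 31 cycling cells (61.3%, 42.2 to 78.2) and 25 of 28 non-cycling cells (89.3%, 71.8 to 97.7), and 6 non-cycling cells exceeded every cycling cell. Its difference was -3.39 among cells with Xist and -0.55 among cells with Y-linked transcripts.

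Ahnak2, a large scaffold protein, had 0, 4.37 and 120 TPM in cycling cells, against 0, 28.5 and 114.2 TPM in non-cycling cells. It was detected in similar shares of both classes, 26 of 31 and 25 of 28, so its difference of -1.81 (SD 1.51 in cycling and 2.12 in non-cycling cells) lay in the level among cells that had it. Only 1 of 31 cycling cells was above the non-cycling median, and that cell had the highest value of all. Mxd4, a partner of Max that opposes Myc, had 0, 0.76 and 19.4 TPM in cycling cells, against 0, 9.10 and 67.8 TPM in non-cycling cells, and 14 of 31 against 23 of 28 cells had it. Myc itself had a difference of -0.13, and -1.45 in the matched pairs. Trp53inp2 was in 13 of 31 cycling and 20 of 28 non-cycling cells, with medians of 0 and 14 TPM.

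The remaining lower genes were Mapre3, a microtubule plus-end binding protein, Galt, an enzyme of galactose breakdown, Tmbim4, a Golgi protein that limits cell death, Il1r2, the decoy receptor for interleukin-1, Serpinb2, an inhibitor of plasminogen activators, and Clca3a2, of the family of chloride channel regulators. The last 3 were found in a minority of both classes, for Il1r2 in 3 of 31 cycling and 11 of 28 non-cycling cells. These differences leaned more on the choice of cells than those of the higher genes. In the pairs matched on the number of genes, Serpinb2 and Clca3a2 turned to 0.61 and 0.39, and 6 of the 12 stayed past 1: Pld3 at -2.20, Tmbim4 at -1.91, Enthd2 at -1.86, Trp53inp2 at -1.78, Vps39 at -1.76 and Galt at -1.17. Ahnak2 was then at -0.88 and Mxd4 at -0.45.

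**Figure D2:**
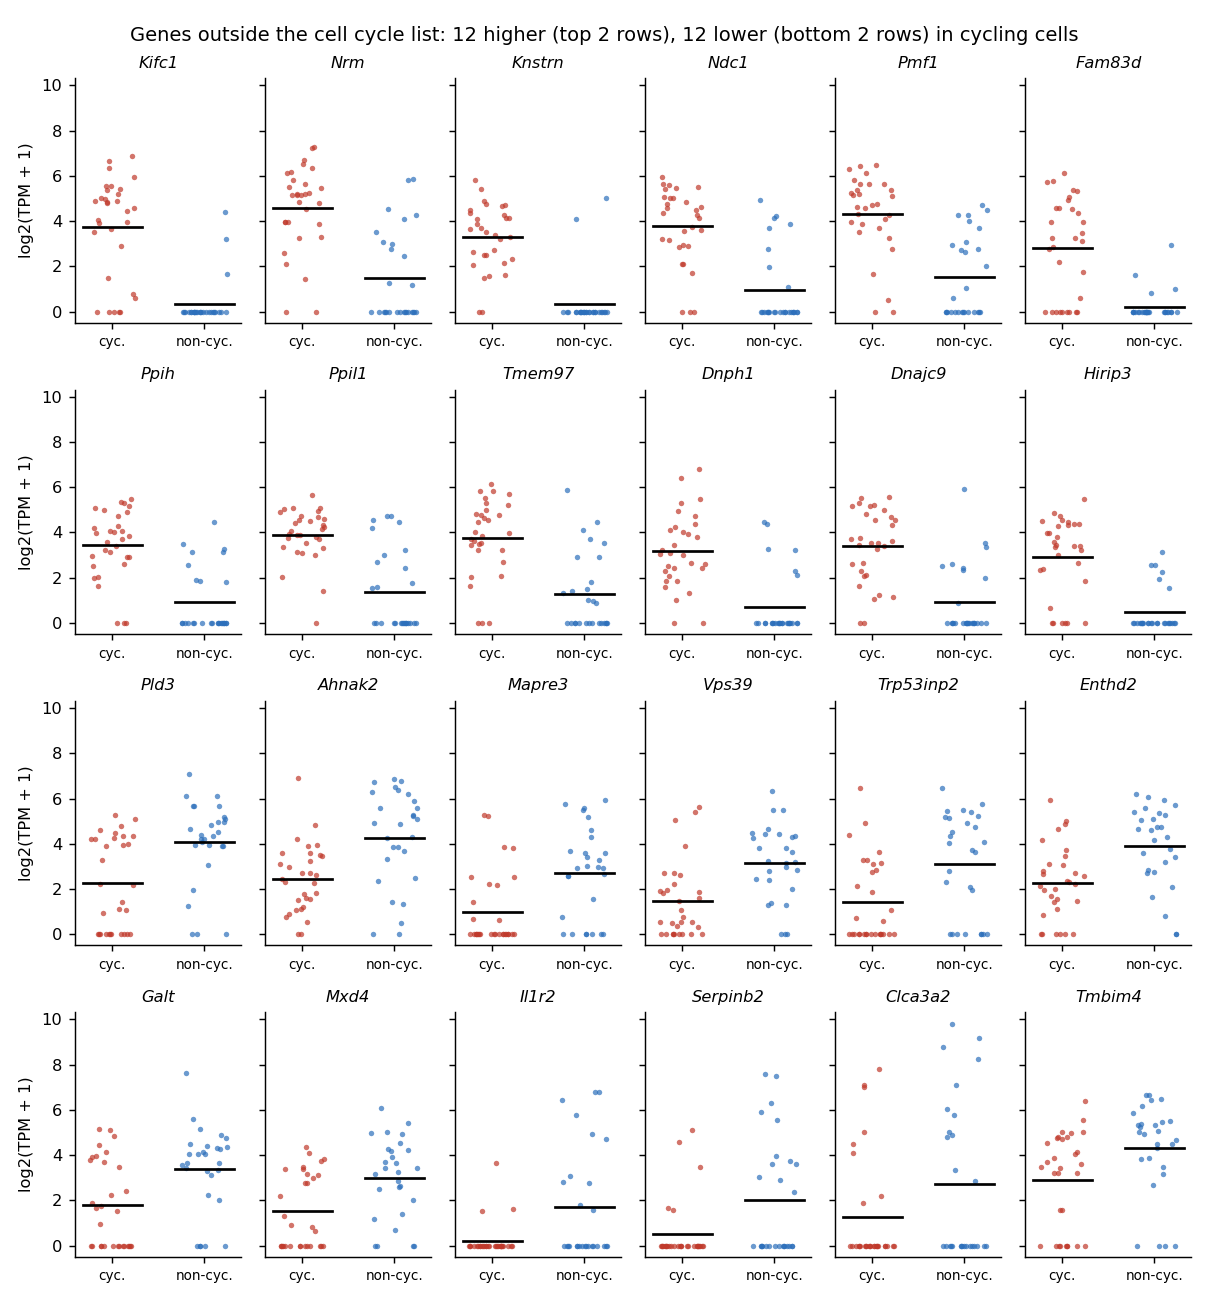
Each point is the log2(TPM + 1) of 1 cell, cycling (red, left) or non-cycling (blue, right), and bars are means, for the 12 genes outside the cell cycle lists with the largest positive (top 2 rows) and the 12 with the largest negative differences (bottom 2 rows). The higher genes are at 0 in between 14 (Pmf1 and Tmem97) and 26 (Knstrn) of 28 non-cycling cells, with Kifc1 at 0 in 25. Most lower genes spread over the same range in both classes with more cycling cells at 0, as Mapre3 in 20 of 31 cycling and 7 of 28 non-cycling cells.

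The same split in other tumour cells gave values that the choice of these genes had not used. Of the 665 genes called higher outside the cell cycle lists, 81.7% were also above 0 both among the reporter-positive cells and after transfer, against 44.2% of all genes counted. Of the 76 called lower, 35 (46.1%) were below 0 in both, against 13.8% of all genes counted. Among the 12 lower genes, 8 were below 0 in both groups and 3 by at least 1 in both: Ahnak2 at -2.41 among reporter-positive cells and -1.67 after transfer, Trp53inp2 at -2.22 and -1.61, and Mxd4 at -1.72 and -1.66. Pld3 was at -0.78 and -0.53. Vps39 was at -0.67 among reporter-positive cells and 0.47 after transfer. The groups differ in gate, strain and treatment, and 92 of the reporter-positive libraries correlated at 0.88 or more with a library labelled after transfer, so their label is in doubt. The plates used for the cells after transfer, OT_B and OT2, were chosen so that no cell counts in both groups. Differences between the groups were not tested.

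**Figure D3:**
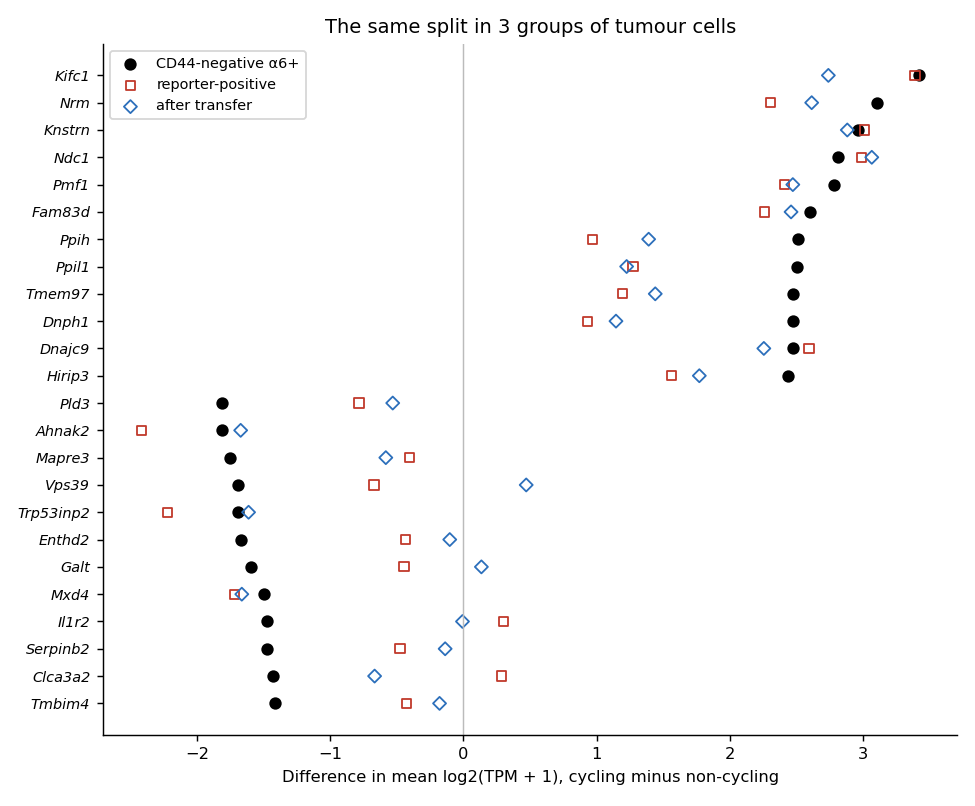
The horizontal axis gives the difference in mean log2(TPM + 1), cycling minus non-cycling, for the 12 higher and 12 lower genes in the CD44-negative α6+ gate (black circles, by which they were chosen), reporter-positive cells (red squares) and cells after transfer (blue diamonds). All 12 higher genes lie right of 0 in the 3 groups, and of the lower genes Ahnak2, Trp53inp2 and Mxd4 lie beyond -1 in all 3.

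Genes were next described by pathway. Of 33 lists outside the cell cycle, 5 had a median difference of at least 0.5 in size, all 5 positive: nucleotide synthesis, splicing and RNA binding, cholesterol synthesis, metallothioneins and zinc, and ribosome biogenesis. Their medians stand beside the median of all genes counted, 0.18, and their counts beside the 5.77% of genes outside the cell cycle lists that were called higher. All 22 nucleotide synthesis genes were above 0, with a median of 0.93, and 7 were higher by at least 1: Cad, Shmt1, Shmt2, Pfas, Ppat, Umps and Ctps. Cad, the enzyme of the first 3 steps of pyrimidine synthesis, had a lowest value of 11.9, a median of 38.8 and a highest value of 96.8 TPM in cycling cells, against 0, 15.8 and 92.9 TPM in non-cycling cells. It was in all 31 cycling and in 22 of 28 non-cycling cells, with a difference of 1.84 (SD 0.78 and 2.12). Shmt1 and Shmt2, the cytosolic and mitochondrial serine hydroxymethyltransferases that feed one-carbon units to thymidylate and purine synthesis, had differences of 1.78 and 1.49. Dhodh, the mitochondrial step of pyrimidine synthesis, had the smallest at 0.12. In matched pairs the list's median was 0.49, just under the threshold, and none of these 7 genes reached 1, their differences being 0.59 to 0.92, with Cad at 0.64.

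Of 29 splicing and RNA-binding genes, all were above 0 and 8 were higher, with a median of 0.81. The largest differences were those of Lsm3, of the ring that binds U6 RNA, at 1.73, Srsf7, an SR splicing factor, at 1.62 and Lsm2 at 1.43. Srsf7 was in all 31 cycling cells (3.44 to 64.3 TPM, median 17.99), and 23 of 28 non-cycling cells had it (0 to 26.9 TPM, median 7.26). The median of the list was 1.05 among cells with Xist and 0.64 among those with Y-linked transcripts, 0.89 and 1.25 among reporter-positive cells and after transfer, but 0.25 in the pairs matched on the number of genes, in which Lsm3 and Srsf7 were at 2.33 and 1.73. Ribosome biogenesis had a median of 0.53 with 4 of 25 genes higher, Gar1, Rrp9, Nop16 and Nop58, and in matched pairs the direction turned, to -0.11 for the list, -0.46 for Rrp9 and -0.19 for Nop16. Gar1, of the particles that guide pseudouridylation, stayed at 1.76 and Nop58 at 1.06. Cytosolic ribosomal proteins had a median of -0.07, and 0 of 57 passed 1 in either direction.

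Cholesterol synthesis went with the split in this gate and less so in the others. All 22 genes were above 0, 6 were higher, and the median was 0.80. Fdps, which makes farnesyl diphosphate, had a lowest value of 0, a median of 75.1 and a highest value of 280.5 TPM in cycling cells, against 0, 27.8 and 428.6 TPM in non-cycling cells, with a difference of 1.62 (SD 1.71 and 2.503). Ebp, Dhcr7, Pmvk and Sqle, all enzymes of the pathway, had differences of 1.15 to 1.18. Both classes covered nearly the same range, and 23 of 31 cycling cells lay above the non-cycling median of Fdps. The list's median was 0.43 among cells with Xist, 1.14 among cells with Y-linked transcripts and 1.27 in matched pairs. It was 0.28 among reporter-positive cells and -0.07 after transfer, a difference that was not tested. Of the 6 genes of metallothioneins and zinc, whose median was 0.61, 1 was past 1, the zinc importer Slc39a10 at 1.54, while the metallothionein Mt2 had medians of 184.6 TPM in cycling and 78.9 TPM in non-cycling cells and a difference of 0.85. The median of these 6 was 0.26 among cells with Xist, 0.94 among cells with Y-linked transcripts and 0.72 in matched pairs, and 0.29 among reporter-positive cells and 0.22 after transfer, where Slc39a10 was at 0.47 and -0.10.

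**Figure D4:**
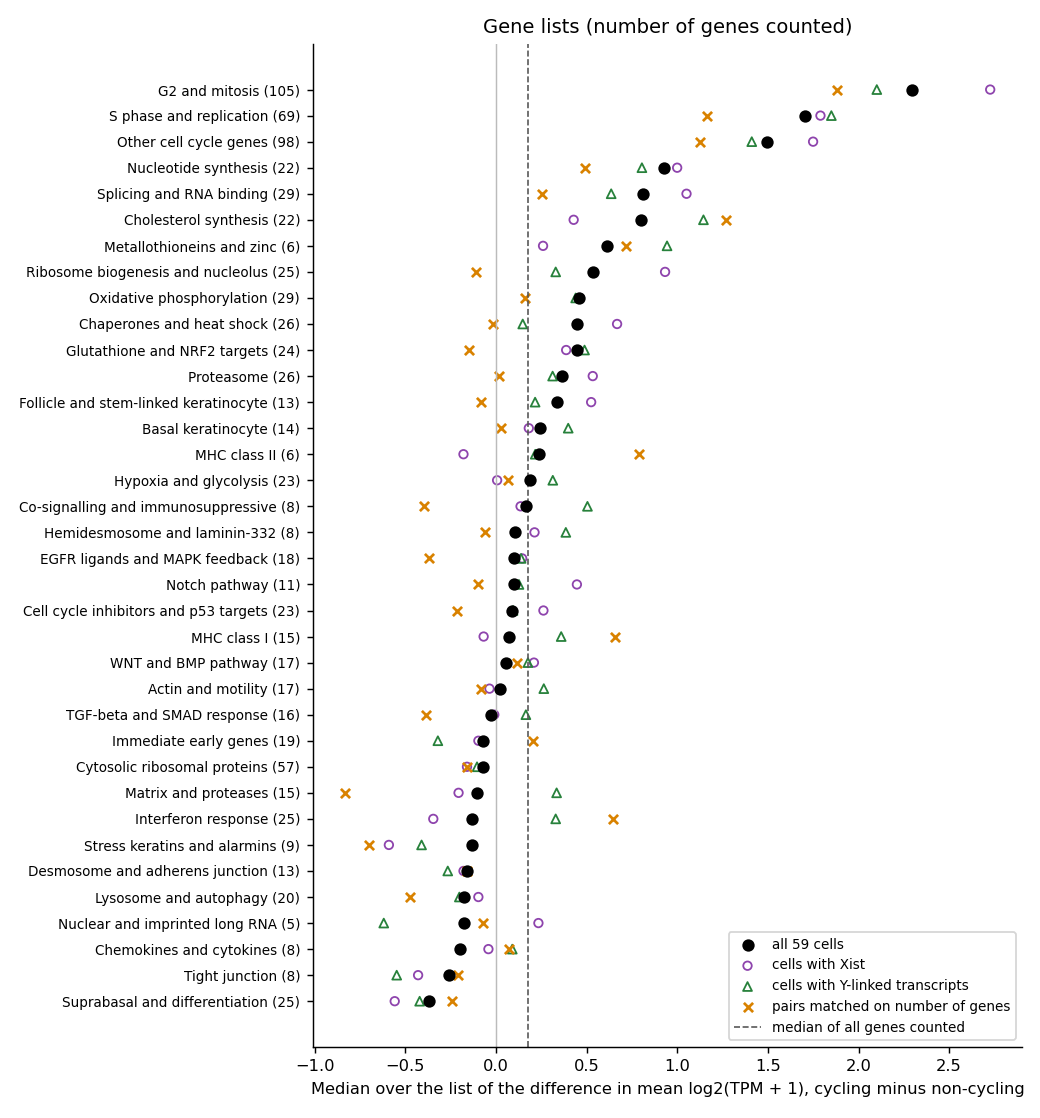
The horizontal axis gives the median, over the genes of each list, of the difference in mean log2(TPM + 1), cycling minus non-cycling, for all 59 cells (black), cells with Xist (purple circles), cells with Y-linked transcripts (green triangles) and 11 pairs matched on the number of genes (orange crosses); the dashed line is the median of all genes counted, 0.18. The 3 cell cycle lists lie right of 1 in every version, and of the 5 further lists at 0.5 or more, ribosome biogenesis lies left of 0 in the matched pairs.

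Inhibitors of the cell cycle did not move as a group. Of 23 genes of inhibitors and p53 targets, 2 were higher, 2 were lower and the median was 0.09. Cdkn1a, p21, the inhibitor induced by p53, had a lowest value of 0, a median of 24.1 and a highest value of 148.1 TPM in cycling cells, against 0, 80.9 and 452.1 TPM in non-cycling cells. Only 4 of 31 cycling cells exceeded the non-cycling median, 6 non-cycling cells exceeded every cycling cell, and the difference was -1.03 (SD 1.60 and 2.42). It was -1.40 among cells with Xist, -0.85 among cells with Y-linked transcripts, -0.92 among reporter-positive cells and -1.37 after transfer. Nearly every cell had the transcript, 29 of 31 cycling and 25 of 28 non-cycling. Trp53inp1, another p53 target, was lower at -1.13, and -1.21 and -1.10 in the other groups. Both were just short of 1 in matched pairs, at -0.90 and -0.99.

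Cdkn2d, the p19 inhibitor of Cdk4 and Cdk6, went the other way. It had 0, 5.46 and 35.5 TPM in cycling cells, against 0, 0 and 33.8 TPM in non-cycling cells, and was in 21 of 31 (67.7%, 48.6 to 83.3) against 5 of 28 (17.9%, 6.06 to 36.9). Its difference was 1.94, and 2.06 in matched pairs, 1.73 among reporter-positive cells and 0.44 after transfer. Cdkn2c, the related p18, had a difference of 0.67 and was in 16 of 31 cycling and 5 of 28 non-cycling cells. Gadd45a, a growth arrest and DNA damage gene, was in 13 of 31 cycling and 2 of 28 non-cycling cells, with a difference of 1.11. It was at 0.33 among reporter-positive cells and 0.01 after transfer. Trp53 itself was in all 59 cells, with medians of 46.4 TPM in cycling and 41.4 TPM in non-cycling cells and a difference of 0.48. Cdkn1b, p27, was at 0.53, Cdkn2a and Cdkn2b, which encode p16 and p15, were at 0.00 and -0.42, and the p53 targets Mdm2, Bax and Phlda3 were at -0.38, 0.63 and -0.19, none of them past 1. In the matched pairs Mdm2 was at -0.87, Bax at -0.21 and Phlda3 at -1.11, past 1, while Trp53 was at -0.30, Cdkn2a at -0.75 and Gadd45a at 2.15.

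Suprabasal genes lay mostly below 0, with few past the threshold. Of 25, only 4 were above 0, 2 were lower by at least 1 and 1 was higher, and the median was -0.37, against 0.18 for all genes, at -0.56 among cells with Xist and -0.42 among cells with Y-linked transcripts. It was -0.24 in the matched pairs, 0.68 among reporter-positive cells and -1.04 after transfer. The genes named in this paragraph were chosen after their values were seen. Krt1, the first keratin of suprabasal cells, had a lowest value of 0, a median of 22.8 and a highest value of 4510 TPM in cycling cells, against 0, 84.5 and 3789 TPM in non-cycling cells. It was in 24 of 31 cycling and 22 of 28 non-cycling cells, and its difference of -1.16 was small beside the SDs of 4.04 and 4.33. Krt10, its partner, was at -0.80, and Sprr1a, a cornified envelope precursor, at -1.02. Fabp5, a fatty acid binding protein of keratinocytes, was higher at 1.08 over all cells, 1.33 among cells with Xist and -0.06 among those with Y-linked transcripts. Krt16, a keratin of wounded and stressed epidermis, had a median of 52.7 TPM in cycling cells (0 to 6199) and 316.03 TPM in non-cycling cells (0 to 8670), with a difference of -1.20, and its sequence is close enough to that of Krt14 that reads may have been shared. In the matched pairs Krt1 was at -1.45, Krt10 at -1.64, Krt16 at -2.46, Sprr1a at -0.65 and Fabp5 at -0.56, the sign of Fabp5 thus being turned.

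In this gate, with all cells used, the basal identity of the 2 classes differed little. Krt5 and Krt14, the keratins of basal cells, were in all 59 cells, Krt5 with medians of 1884 TPM in cycling and 1738 TPM in non-cycling cells and Krt14 with 6706 and 8009 TPM, and their differences were 0.44 and -0.21. Krt15, a basal and follicle keratin, was at 0.00 here and at 1.80 in matched pairs. Itga6, the α6 integrin used for the sort, had 6.78, 35.3 and 108.4 TPM (lowest, median, highest) in cycling cells, against 0, 32.5 and 267.3 TPM in non-cycling cells, with a difference of 0.60. Cd44 transcript was in all 59 cells of this gate sorted as negative for the protein, with medians of 144.8 TPM in cycling and 139.8 TPM in non-cycling cells and a difference of -0.21, at -0.96 in matched pairs. Cd34 transcript was at 1 TPM or more in 0 of 31 cycling cells (0 to 11.2%) and in 6 of 28 non-cycling cells (21.4%, 8.30 to 40.95), none above 6.85 TPM; its difference was -0.35, and -1.17 in matched pairs. Lists of 14 basal and 8 hemidesmosome genes had medians of 0.25 and 0.11. These 2 medians were -0.36 and -1.45 among reporter-positive cells, and 1.10 and 1.71 after transfer. The single basal gene past 1 was Bcam, a laminin receptor, at 1.39. It was at -0.87 among reporter-positive cells and 1.43 after transfer. Itga6 was at -0.71 and 1.70 in those groups, and Krt5 at 0.13 and 2.12. These differences between groups were not tested.

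**Figure D5:**
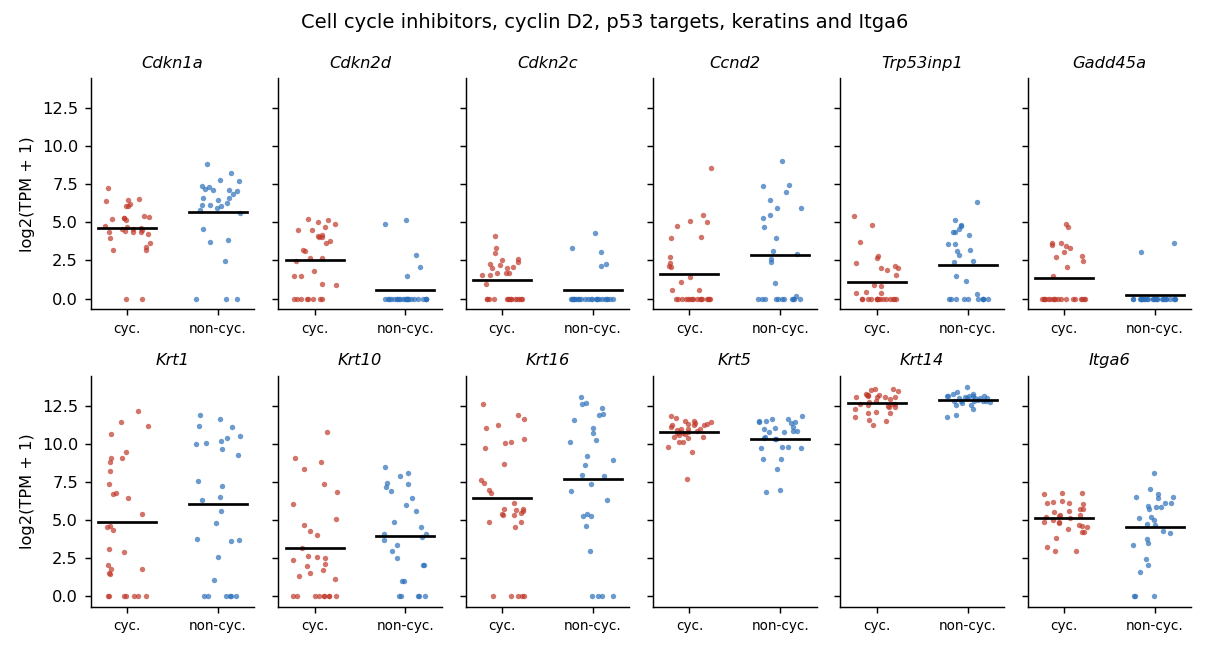
Each point is the log2(TPM + 1) of 1 cell, cycling (red, left) or non-cycling (blue, right), and bars are means, for inhibitors and p53 targets with cyclin D2 (top) and for keratins and Itga6 (bottom). Cdkn1a lies lower and Cdkn2d higher in cycling cells, Krt1, Krt10 and Krt16 spread over the whole range in both classes, and Krt5 and Krt14 are high in every cell.

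With all cells used, the other lists stayed within 0.5 of 0. Oxidative phosphorylation, chaperones, glutathione and NRF2 targets, and proteasome genes had medians of 0.46, 0.45, 0.44 and 0.37, with 2 of 29, 2 of 26, 3 of 24 and 1 of 26 genes higher by at least 1 and 0 lower. In the matched pairs these 4 medians were 0.16, -0.02, -0.15 and 0.02. Signalling and immune lists lay near the median of all genes or below it: the TGF-beta and SMAD response had a median of -0.03 over 16 genes, interferon response -0.13 over 25, MHC class I 0.07 over 15, matrix and proteases -0.10 over 15 and immediate early genes -0.07 over 19, with 0 genes past 1 in any of these 5. In the matched pairs the median was -0.83 for matrix and proteases, -0.70 for stress keratins and alarmins, 0.65 for interferon response, 0.66 for MHC class I and 0.79 for MHC class II, all 5 past 0.5, and -0.39 for the TGF-beta and SMAD response and 0.20 for immediate early genes. Among cells with Xist, chaperones were at 0.67, proteasome genes at 0.53, follicle and stem-linked genes at 0.52 and stress keratins and alarmins at -0.59. Among cells with Y-linked transcripts, nuclear and imprinted long RNA was at -0.62, tight junction genes at -0.55 and co-signalling and immunosuppressive genes at 0.50. Over all cells, 5 single genes are named after their values were seen. Hbegf, an EGFR ligand, was at -1.04 and F11r, a tight junction adhesion molecule, at -1.03. Id3, an inhibitor of basic helix-loop-helix factors, was at 1.08, Sostdc1, a BMP and WNT antagonist, at 1.23 and H2-Ab1, a class II chain, at 1.14. In this order they were at -1.42, -0.83, 0.85, 0.61 and 1.65 in the matched pairs. Among reporter-positive cells they were at -0.90, -0.37, 0.62, 0.02 and -0.49. Id3 was at 0.23 among cells with Y-linked transcripts. H2-Ab1 was in 11 cycling and 4 non-cycling cells, with a median of 0 TPM in both classes.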

How the data were processed

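Per the labels' protocols, sorted single cells were collected in 96-well plates, amplified by a modified Smart-seq2 protocol, tagged with Nextera XT and sequenced in paired-end mode. The authors deposited TPM per gene and library. Bowtie2 2.2.9 and RSEM 1.2.30 are named as tools, and mm10 as the build, per the submitters' processing notes; the handling of multi-mapping reads is not stated there. Since TPM values carry no read depth, genes at 1 TPM or more per cell were counted instead. The table held 46517 gene rows and 92 ERCC rows, and 46005 identifiers matched GENCODE M21 of the same build, from which symbols were taken. A set of 8 rows linked to ribosomal RNA took a median of 72.5% of TPM in cycling and 73.5% in non-cycling cells. The deposited TPM were used without rescaling, so the TPM of every gene is a share of a total that includes these rows. Rescaling without them was run only as an alternative.

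Classes, lists and genes were compared as differences in mean log2(TPM + 1) with a pseudocount of 1, which understate differences of weakly expressed genes, and as shares of cells at 1 TPM or more. The labels name no animal, so the 2 classes were treated as cells of 1 sample and no test was made; differences within cells with Xist and within cells with Y-linked transcripts, from at least 2 mice, stand in for replicates only as a description. A gene was called at a difference of 1 and a list at a median of 0.5. Named genes outside the cell cycle lists were the 12 with the largest difference in each direction among those at 1 TPM or more in at least 25% of a class, past 1 in all cells and past 0.5 in the same direction among cells with Xist and among cells with Y-linked transcripts, leaving out histones, numbered gene models and pseudogenes; 554 higher and 56 lower genes met this. From each called list the 3 largest and the 1 smallest were named, and from the cell cycle lists the 8 largest and 4 smallest. The members and lists were chosen with earlier results of these data known.

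Repeats of 1 cell were sought by correlation, as r of at least 0.88 or a mutual best match by a margin of 0.05, and none was found in the gate. Promoter windows came from the RefSeq table of GRCm38.p6, the assembly of mm10. Alternatives were a pseudocount of 0.1, other filters on genes and cells, 2 other scalings, each sex-marked set alone, and cells with 1 marker counted as cycling. Pairs matched on the number of genes, and leaving out the cell with both marks, were added after seeing the data. Calculations were checked on simulated data and run in Python 3.11.15 with numpy 2.4.6, pandas 2.3.3 and scipy 1.17.1. A few single genes that the naming rule or the marker lists take in are not reported here.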

Additional observations from a re-analysis of the deposited data

Results flagged for a closer look

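Cells with 1 of the 2 markers took no part in the comparison, and they held a median of 18.5 G2 and mitosis genes at 1 TPM or more, which is above the median of 17 in non-cycling cells and far below that of 89 in cycling cells. Krt1 was higher in cycling cells of the reporter-positive gate, at 1.03, and lower in those of the CD44-negative α6+ gate, at -1.16. Krt16 likewise had a difference of 1.59 among reporter-positive cells and -1.20 in the CD44-negative α6+ gate. These opposite directions between gates were not tested, and after transfer the 2 keratins were at -1.39 and -2.62.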

How the results depend on the processing

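The gate is 1 sample and TPM keeps no depth, so the spread between animals and the counting error of a TPM are unknown. No paired analysis was possible because the labels give no replicate number that the 2 classes share; the matched pairs are pairs of cells, and values within the Xist and Y-linked sets are given beside the results. Calls were planned as numbers of genes and are given here as percent of the genes counted, a change made after the numbers were seen; of all genes counted, 7.85% (929) were higher and 0.650% (77) lower in cycling cells. With a pseudocount of 0.1 these shares were 23.98% (2839 genes) and 3.13% (370), with no filter on low values 4.92% and 0.408% (the same 929 and 77, of 18870 genes), rescaled without spike-in and ribosomal rows 15.1% (1892) and 1.92% (240), among cells with Xist 14.4% (1713) and 2.17%, and with 1-marker cells counted as cycling 3.21% (370) and 0.373% (43). The share lower was 1.14% with cycling cells at 5 TPM or more, 1.30% among cells with 6000 to 8000 genes, 2.73% among cells with Y-linked transcripts and 6.48% (745) in 11 pairs matched on the number of genes, an alternative chosen after seeing the data. By number but not by percent, the lower calls also moved over 1.5 times among genes in at least 50% of cells, to 44 of 6663. All-gene medians were 0.40 with the pseudocount of 0.1, 0.25 rescaled, 0.11 with median-ratio scaling and -0.04 in matched pairs, against 0.18. The cycling share of 34.1% became 69.2% with 1-marker cells included and 50.5% with Mki67 alone. The medians of the S phase list were 3.09 with the pseudocount of 0.1, 2.40 rescaled and 1.06 with 1-marker cells, those of the G2 and mitosis list 4.34, 3.42 and 1.25, and those of the other cell cycle genes 2.52 with that pseudocount and 0.88 with 1-marker cells. In matched pairs, ribosome biogenesis turned to -0.11, Rrp9 to -0.46, Nop16 to -0.19, Serpinb2 to 0.61 and Clca3a2 to 0.39; the cause was not tested. For the lists called, 95 of the other medians moved by less than a 1.5-fold change on the TPM + 1 scale.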
